A study of Mus musculus with 8 samples.

Results

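The interleukin 1, interleukin 6 and Tnf genes are 10 genes taken from a count table of 50462 gene identifiers by matching each identifier to its symbol. The interleukin 1 group holds the ligands Il1a and Il1b, the receptor antagonist Il1rn and the signalling receptor Il1r1. The interleukin 6 group holds the ligands Il6, Il11, Lif and Osm and their shared signal transducer Il6st, also known as gp130. Tnf is the tenth gene. All 10 were in the table, and all 8 libraries of the series were used.

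The libraries were made from medial knee cartilage caps of wild-type male C57BL/6J mice, one library per mouse. The naive group holds 4 unoperated mice sampled at day 0 and aged 11 weeks. The DMM group holds 4 mice sampled 42 days after destabilisation of the medial meniscus, aged 17 weeks. In this surgical model of post-traumatic osteoarthritis the ligament that ties the medial meniscus of the left knee to the tibia is cut, which makes the joint unstable. The operated mice also received isoflurane and buprenorphine, which the naive mice did not. No sham-operated mice were analysed here, so surgery, anaesthesia, analgesia and the 6 weeks of added age cannot be told apart.

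Interleukin 1 alpha and beta are ligands of the same receptor, Il1r1, and Il1rn encodes a natural antagonist that occupies that receptor without signalling. The ligands Il6, Il11, Lif and Osm act through a further receptor together with the shared gp130, which activates Jak kinases and the transcription factor Stat3. Tnf acts through its own receptors, and both it and interleukin 1 signal to NF-kB. In cartilage, interleukin 1, Tnf and oncostatin M are known for inducing matrix-degrading enzymes, and interleukin 11 and Lif are made by several cells of the joint and bone.

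Total estimated counts were 12479443 to 16548002 per library, and between 16770 and 19271 genes had at least 10 counts, with the lowest number in naive replicate 2. The labels give the tissue as cartilage and the cell type as chondrocyte. The cartilage genes Col2a1, Acan and Comp were abundant in every library, whereas Matn1 lay between 0.0 and 1.7 normalised counts in DMM libraries and averaged 5.24 ± 4.52 (SD, n = 4) in naive libraries. Transcripts of other cells were also present: osteoblast and osteocyte markers held 0.91% to 1.31% of counts in naive and 2.59% to 3.18% in DMM libraries, and neutrophil lineage markers held 0.529% to 1.37% over all libraries. In such bulk tissue, fewer cells of a type and less RNA per cell cannot be told apart.

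The upstream sequences of Il11 and Lif are shown because these genes rose, and that of Il6 because it is the family's best known inducible ligand and was close to silent here. They are RefSeq sequences on GRCm38.p6, read 5′ to 3′ toward the start site on the strand of the gene. Capitals mark the letters TGANTCA, to which AP-1 is known to bind, and GGANTTTCC, an NF-kB motif, searched on both strands.
Il11, chr7:4778142-4778391, minus strand, upstream of the second listed start and within an intron of the longer transcript model: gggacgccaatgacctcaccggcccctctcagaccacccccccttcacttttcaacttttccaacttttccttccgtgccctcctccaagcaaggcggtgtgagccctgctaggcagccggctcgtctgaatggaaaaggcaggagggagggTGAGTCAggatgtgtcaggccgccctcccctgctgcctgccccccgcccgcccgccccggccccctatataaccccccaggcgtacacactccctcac
Lif, chr11:4257318-4257556, plus strand, upstream of the first annotated exon: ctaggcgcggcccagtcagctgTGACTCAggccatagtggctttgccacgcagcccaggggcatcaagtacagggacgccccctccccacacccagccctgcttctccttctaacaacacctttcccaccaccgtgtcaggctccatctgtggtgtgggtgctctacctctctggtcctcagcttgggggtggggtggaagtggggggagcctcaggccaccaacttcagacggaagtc
Il6, chr5:30012864-30013113, plus strand, upstream of the first annotated exon: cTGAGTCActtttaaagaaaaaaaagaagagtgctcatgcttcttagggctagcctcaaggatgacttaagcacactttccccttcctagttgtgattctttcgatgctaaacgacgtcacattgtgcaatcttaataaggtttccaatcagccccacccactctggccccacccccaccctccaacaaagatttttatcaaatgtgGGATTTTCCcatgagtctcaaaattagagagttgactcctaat

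The table of start sites held 13 starts for 9 of the 10 genes; Osm was not in it. An AP-1 match lay within 250 bases upstream in 5 of the 13 windows, those of Il1a, Il1rn, Il6, Il11 and Lif, against 6.75% of all 32851 promoter windows. Counted from the start site, the match lay 98 to 92 bases upstream in Il11, 228 to 222 in Lif and 249 to 243 in Il6. The NF-kB letters were found in Il6 alone among these windows, 43 to 35 bases upstream, against 1.07% of all promoters. The TATAAA letters, found in 12.4% of all promoters, lay in the windows of Il1a, Il1b and Tnf. The letters TTCNNNGAA, a Stat motif found in 7.02% of all promoters, were in none of the 13 windows. These matches describe the letters only and were not tested as binding sites.

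At day 42 after surgery Il11 and Lif were higher than in naive cartilage, and no gene of the 10 was called lower by DESeq2 or edgeR. At an unadjusted DESeq2 p under 0.05, 4 were higher and 2 lower, Il1a and Tnf, whose DESeq2 adjusted p were 0.0545 and 0.128. The share of all genes at that unadjusted p is not given here. For Tnf the unadjusted DESeq2 p was 0.0504 with TMM factors and 0.161 with total counts as size factors. A call required both a change of at least 1.5-fold and a p of at most 0.05 in the DESeq2 Wald test, adjusted over all genes by the Benjamini-Hochberg method. Of the 10 genes, 9 received an adjusted p, and 2 of these were called, both higher. Over all 17760 genes tested, 13.7% were called, 7.75% higher and 5.92% lower. The quasi-likelihood test of edgeR called the same 2 genes of the 9 it tested, with 11.3% of all genes called. The adjusted p alone was passed by 4 of the 9 genes, Il1r1, Il6st, Il11 and Lif, against 22.6% of all genes. The median log2 fold change of the 9 genes was -0.35, and that of all genes tested was -0.02.

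**Figure D1:**
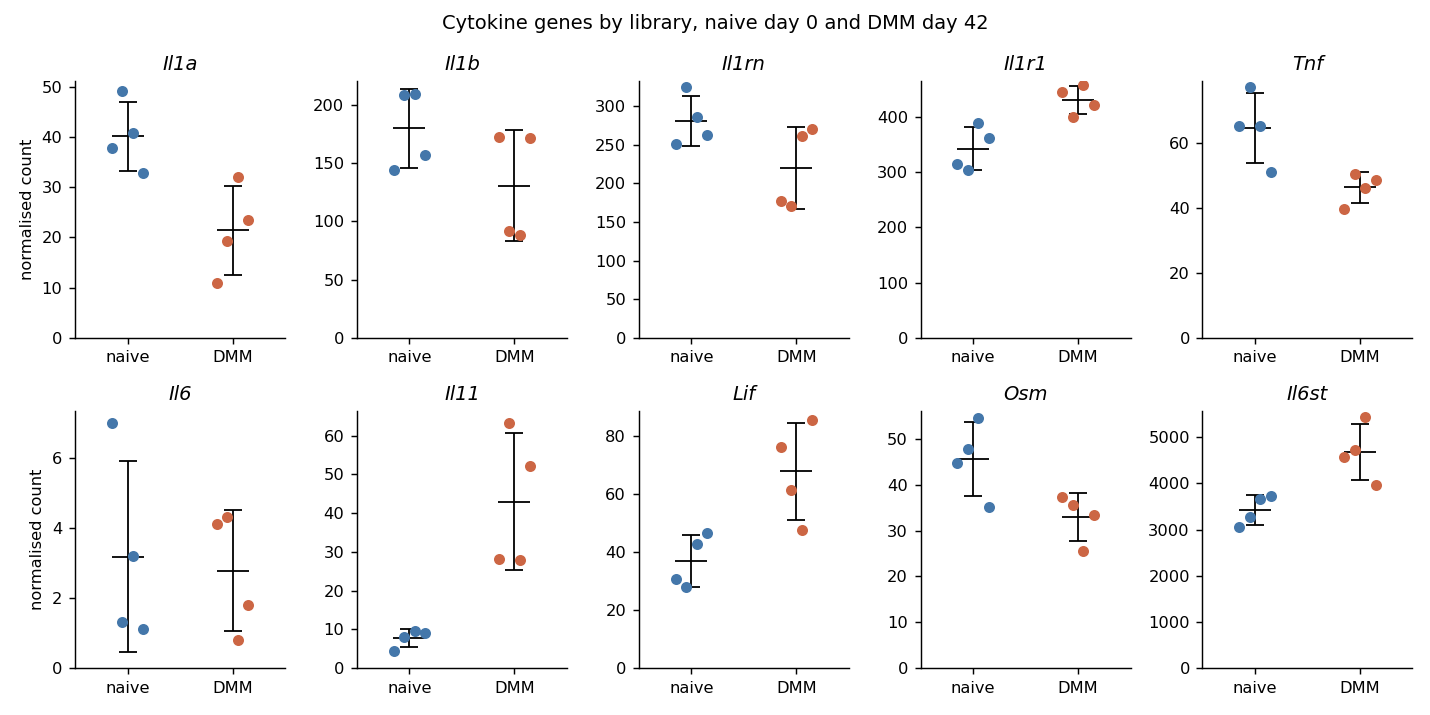
Each panel plots the median-of-ratios normalised count of 1 gene on a linear axis from 0, with 4 naive and 4 DMM libraries as points, the group mean as a horizontal line and the SD as error bars. Il11 and Lif were higher in all 4 DMM libraries than in any naive library, and Il6 stayed at or below 7.0 in every library.

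Il11 (ENSMUSG00000004371, chromosome 7, 4772373 to 4782859, minus strand, GRCm38), a gp130 ligand known for effects on bone and fibroblasts, was at 4.4, 8.0, 9.6 and 9.1 normalised counts in naive libraries 1 to 4. In DMM libraries 1 to 4 it was at 28.2, 63.4, 28.0 and 52.3. The DMM libraries formed a lower and a higher pair, and the lowest of them was still above every naive library. The mean was 7.77 ± 2.35 in naive and 43.0 ± 17.8 in DMM mice (normalised counts, SD, n = 4), a 5.58-fold increase with a 95% interval of 2.97 to 10.5 (log2 fold change 2.48, SE 0.46, DESeq2 adjusted p = 4.7e-06). The naive level rested on few reads, with estimated counts of 5.3 to 8.5 in naive and 34.1 to 58.9 in DMM libraries. The call was kept without each library in turn except DMM replicate 2. Without that library the log2 fold change was 2.24 with an unadjusted DESeq2 p of 9.35e-06, and independent filtering on the mean count gave the gene no adjusted p. In the annotation, 5.2% of the 31-base words of Il11 transcripts also occurred in other genes.

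Lif (ENSMUSG00000034394, chromosome 11, 4257557 to 4272514, plus strand), a gp130 ligand named for its effect on leukaemia cells and active in bone, was at 30.8, 27.9, 42.8 and 46.5 normalised counts in naive libraries 1 to 4. The DMM libraries were at 76.3, 61.3, 47.7 and 85.7. The groups did not overlap, although naive replicate 4 and DMM replicate 3 differed by little. The mean was 37.0 ± 9.03 in naive and 67.8 ± 16.7 in DMM mice (normalised counts, SD, n = 4), which is 1.83-fold with a 95% interval of 1.24 to 2.7 (log2 fold change 0.87, SE 0.29, DESeq2 adjusted p = 0.0153). The call was lost without naive replicate 1, naive replicate 2, DMM replicate 1 or DMM replicate 4, with log2 fold changes of 0.74 to 0.81 and DESeq2 adjusted p of 0.0701 to 0.0812.

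Il6st (ENSMUSG00000021756, chromosome 13, 112464070 to 112510086, plus strand), the shared signal transducer, was the most abundant of the 10 genes. It was at 3056.8, 3267.4, 3668.8 and 3733.8 normalised counts in naive libraries 1 to 4 and at 4580.2, 4722.4, 5444.7 and 3970.2 in DMM libraries 1 to 4. Every DMM library was above every naive library. The difference was 1.36-fold, with a 95% interval of 1.15 to 1.61, and passed the adjusted p but not the fold threshold (log2 fold change 0.45, SE 0.12, DESeq2 adjusted p = 0.00289). With the total count of each library as its size factor instead, the log2 fold change was 0.60 and the gene was called. Under that setting the median log2 value over all genes averaging 10 or more normalised counts went from -0.01 to 0.14, and the share of higher among called genes was 80.6% against 56.7% here.

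Osm (ENSMUSG00000058755, chromosome 11, 4236420 to 4241026, plus strand), the gene of oncostatin M, lies next to Lif on the chromosome. It was at 44.8, 47.9, 54.6 and 35.1 normalised counts in naive libraries 1 to 4 and at 37.3, 35.5, 25.5 and 33.4 in DMM libraries 1 to 4. Only naive replicate 4 lay within the DMM range, and the difference did not pass the test (log2 fold change -0.47, SE 0.28, 95% interval -1.02 to 0.07, DESeq2 adjusted p = 0.228). Lif and Osm thus had fold changes of opposite sign, of which only that of Lif passed the test. The difference between the 2 fold changes was not tested.

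Il6 (ENSMUSG00000025746, chromosome 5, 30013114 to 30019981, plus strand) was close to the limit of detection. Its estimated counts ranged from 1.0 to 8.0 over the 8 libraries and summed to 13 in naive and 12 in DMM libraries. In normalised counts it was at 7.0, 1.3, 3.2 and 1.1 in naive libraries 1 to 4 and at 4.1, 4.3, 0.8 and 1.8 in DMM libraries 1 to 4. The groups overlapped, and the gene was too low for an adjusted p. The 95% interval of its log2 fold change ran from -2.23 to 1.70, so a change of several fold in either direction was not detectable at this depth.

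Among the interleukin 1 genes the ligands and the antagonist were not called, and the receptor differed by less than the fold threshold. Il1a (ENSMUSG00000027399, chromosome 2, 129299610 to 129309972, minus strand) was at 37.8, 49.2, 40.7 and 32.9 normalised counts in naive libraries 1 to 4 and at 10.8, 19.3, 32.1 and 23.5 in DMM libraries 1 to 4. Every DMM library was below every naive library, by the least in DMM replicate 3. The mean was 40.1 ± 6.85 in naive and 21.4 ± 8.87 in DMM mice (SD, n = 4). The log2 fold change was -0.90 (SE 0.36, 95% interval -1.61 to -0.19) and missed the threshold (DESeq2 adjusted p = 0.0545). Leaving out single libraries moved it both ways. Without DMM replicate 1 it was -0.67 (DESeq2 adjusted p = 0.192) and without naive replicate 2 it was -0.79 (0.184). Without DMM replicate 3 it was -1.17 and passed (DESeq2 adjusted p = 0.0166), and with genes filtered at 10 counts in 4 libraries it also passed (DESeq2 adjusted p = 0.0495). Without independent filtering the adjusted p was 0.105. The antisense gene Gm14023 overlaps Il1a and holds 10.0% of its 31-base words, and strand use in the counting is not given in the sources used here.

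Il1b (ENSMUSG00000027398, chromosome 2, 129364570 to 129371139, minus strand) was at 144.2, 208.9, 209.8 and 157.6 normalised counts in naive libraries 1 to 4. In DMM libraries 1 to 4 it was at 172.5, 91.4, 88.1 and 171.5. DMM replicates 1 and 4 lay inside the naive range and DMM replicates 2 and 3 below it. The difference did not pass the test (log2 fold change -0.46, SE 0.26, 95% interval -0.97 to 0.06, DESeq2 adjusted p = 0.213). Without single libraries the log2 value lay between -0.62, without DMM replicate 1, and -0.30, without DMM replicate 3, and none passed. An antisense gene, Il1bos, overlaps it in the annotation.

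Il1rn (ENSMUSG00000026981, chromosome 2, 24336853 to 24351494, plus strand), the receptor antagonist, was at 250.6, 324.6, 285.8 and 263.1 normalised counts in naive libraries 1 to 4 and at 177.5, 170.9, 261.8 and 269.9 in DMM libraries 1 to 4. DMM replicates 3 and 4 lay inside the naive range, and the other two lay below it. The difference did not pass the test (log2 fold change -0.35, SE 0.19, 95% interval -0.72 to 0.02, DESeq2 adjusted p = 0.184). Per count of Il1b there were 1.74, 1.56, 1.36 and 1.67 counts of Il1rn in naive libraries 1 to 4 and 1.03, 1.87, 2.98 and 1.57 in DMM libraries 1 to 4. The DMM ratios spanned the whole naive range, with the lowest in DMM replicate 1 and the highest in DMM replicate 3.

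Il1r1 (ENSMUSG00000026072, chromosome 1, 40225080 to 40317257, plus strand), the signalling receptor of both ligands, was at 315.7, 304.7, 388.5 and 361.7 normalised counts in naive libraries 1 to 4 and at 445.3, 401.0, 457.7 and 422.4 in DMM libraries 1 to 4. The groups did not overlap. The difference was 1.26-fold with a 95% interval of 1.06 to 1.49 and passed the adjusted p but not the fold threshold (log2 fold change 0.33, SE 0.13, DESeq2 adjusted p = 0.0374). The adjusted p was lost without naive replicate 1, naive replicate 2 or any 1 of the DMM libraries (0.0527 to 0.157 in DESeq2) and without independent filtering (0.0723).

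Tnf (ENSMUSG00000024401, chromosome 17, 35199381 to 35202007, minus strand) was at 65.1, 77.2, 65.3 and 51.0 normalised counts in naive libraries 1 to 4 and at 39.8, 50.5, 46.1 and 48.7 in DMM libraries 1 to 4. The groups did not overlap, but naive replicate 4 and DMM replicate 2 almost met. The difference did not pass the test (log2 fold change -0.48, SE 0.23, 95% interval -0.94 to -0.02, DESeq2 adjusted p = 0.128). Of the 9 genes with an adjusted p, 6 did not overlap between the groups, 4 higher and 2 lower in DMM, where 22.2% of all genes tested did not overlap. Scaling by TMM factors or by the total count turned the sign of none of the 10 fold changes, but their size moved. With total counts the log2 fold changes of Il1a, Il1b, Il1rn, Osm and Tnf were smaller in size, at -0.74, -0.29, -0.19, -0.32 and -0.32. Those of Il1r1, Il6st, Il11 and Lif were larger, at 0.48, 0.60, 2.64 and 1.02.

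**Figure D2:**
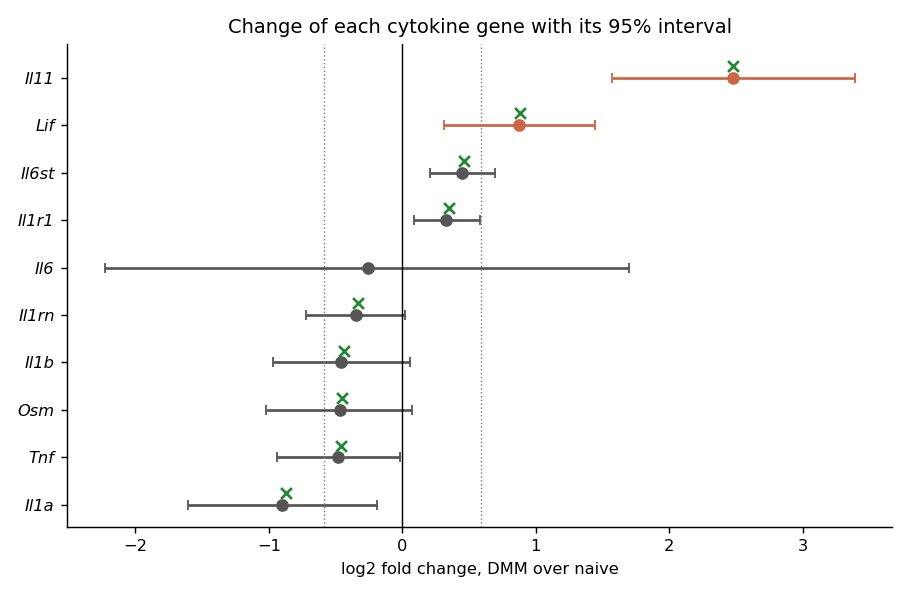
The log2 fold change of DMM over naive from DESeq2 is plotted for each gene as a point with its 95% interval, orange where called and grey where not, with the edgeR estimate as a green cross above it and the 1.5-fold threshold as dotted lines. Il11 at 2.48 and Lif at 0.87 are the called genes, and the interval of Il6 runs from -2.23 to 1.70.

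To compare levels between genes, normalised counts were divided by the median length of each gene's coding transcripts in kilobases. In naive libraries Il6st was highest with 1335 ± 126 normalised counts per kilobase (SD, n = 4). Below it came Il1rn at 207 ± 24.0, Il1b at 133 ± 25.2, Il1r1 at 64.3 ± 7.38 and Tnf at 41.7 ± 6.89, with no overlap between neighbours. Il1a at 20.3 ± 3.47 and Osm at 20.1 ± 3.56 could not be ordered, since their ranges overlapped. Lif at 9.46 ± 2.31 overlapped Il11 at 7.34 ± 2.22, which in turn overlapped Il6 at 3.02 ± 2.60.

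In DMM libraries the order of level per kilobase changed most for Il11, which stood at rank 9 in naive and rank 5 in DMM libraries. There it was at 40.6 ± 16.8 normalised counts per kilobase, a range that overlapped Tnf at 29.9 ± 3.02 below it. Il1rn at 162 ± 39.1 overlapped Il1b at 96.5 ± 35.0, and Il1b overlapped Il1r1 at 81.0 ± 4.72. Lif at 17.3 ± 4.27 overlapped Osm at 14.5 ± 2.29, and Osm overlapped Il1a at 10.9 ± 4.49. Il6 remained last at 2.63 ± 1.64 and overlapped none of the others. With the longest coding transcript as the length, Il1b came above Il1rn with overlapping ranges in both groups and Il11 came at rank 6 in DMM libraries.

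**Figure D3:**
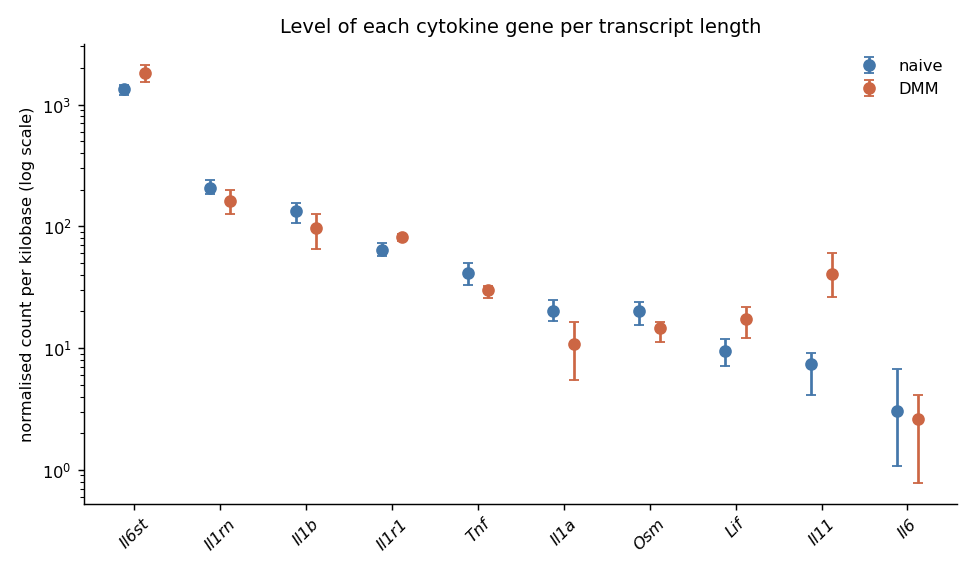
The normalised count per kilobase of median coding transcript length is plotted on a log axis, with the group mean as a point and the range over 4 libraries as bars, in blue for naive and orange for DMM. Il6st is the highest at 1335 and 1820 and Il6 the lowest at 3.02 and 2.63, and Il11 moves from 7.34 to 40.6.

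The 4 genes Il1a, Il1b, Osm and Tnf are known products of myeloid cells. Markers of the neutrophil lineage and of monocytes and macrophages are therefore given beside them. Of 18 neutrophil lineage markers, 14 were called lower in DMM, none higher, where 5.92% of all genes tested were called lower. The median log2 fold change of the list was -0.81. Mmp8, Cxcr2, Csf3r and Mmp9 were not called, at log2 fold changes of -0.58, -0.49, -0.29 and 0.06. Of the markers called by DESeq2, edgeR did not call S100a8, Ly6g, Retnlg and Lcn2. The 3 most abundant markers of the list were S100a9, Ngp and Ltf. Their naive means were 39110 ± 8225, 37768 ± 6988 and 26479 ± 5616 normalised counts, and their DMM means were 21782 ± 7219, 20491 ± 6656 and 14849 ± 4491 (SD, n = 4). No marker of the list was at 0. The list held 1.26%, 1.28%, 1.37% and 1.0% of counts in naive libraries 1 to 4 and 0.529%, 0.654%, 0.945% and 1.02% in DMM libraries 1 to 4. DMM replicate 4 lay just inside the naive range, and the share did not pass the two-sided exact permutation test (p = 0.0571, smallest possible 0.0286). As summed normalised counts the same list did not overlap between the groups (exact permutation test, p = 0.0286). Erythroid markers were lower in the same comparison, with 7 of 8 called lower and a median log2 fold change of -0.96. Their share of counts was 0.991% to 1.68% in naive and 0.547% to 1.17% in DMM libraries.

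The share of monocyte and macrophage markers was 0.104% ± 0.00642 in naive mice and 0.107% ± 0.00466 in DMM mice (SD, n = 4, two-sided exact permutation test, p = 0.4857). As summed normalised counts the same list was lower in DMM mice, which did not pass that test either. Of the 14 markers, 2 were called lower and none higher, which is 14.3% called against the 13.7% of all genes. The 3 most abundant, F13a1, Csf1r and Mrc1, had log2 fold changes of -0.11, 0.20 and -0.19 and none was called.

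Il1a was lowest, at 10.8 normalised counts, in DMM replicate 1, the library with the lowest neutrophil share. Tnf was also lowest in that library, at 39.8. Il1b and Osm did not show this order, with their highest DMM values, 172.5 and 37.3, in the same library. Il1a itself was higher in DMM replicate 3 (32.1) than in DMM replicate 4 (23.5), which had the larger share. Per 10000 counts of the neutrophil lineage list there were 8.02, 9.72, 10.7 and 10.9 counts of Il1b in naive libraries 1 to 4 and 24.3, 10.4, 6.84 and 12.8 in DMM libraries 1 to 4. DMM replicates 1 and 4 stood above and DMM replicate 3 below all naive libraries. On the log2 scale the ratio was 0.32 higher in DMM, with SDs of 0.20 in naive and 0.76 in DMM libraries (two-sided exact permutation test, p = 0.5143). Without DMM replicate 1 the difference was -0.00933.

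Per 10000 neutrophil lineage counts, Tnf was at 3.62, 3.59, 3.33 and 3.53 counts in naive libraries 1 to 4 and at 5.6, 5.76, 3.58 and 3.64 in DMM libraries 1 to 4. Osm was at 2.49, 2.23, 2.78 and 2.43 in naive and at 5.25, 4.04, 1.98 and 2.50 in DMM libraries on that scale. For both, the high values were those of DMM replicates 1 and 2, where the list's own share was lowest. On the same scale Il1rn was at 13.9, 15.1, 14.6 and 18.3 in naive and at 25.0, 19.5, 20.4 and 20.1 in DMM libraries. Every DMM value of Il1rn on this scale was above every naive value. The list it was divided by was itself lower in DMM, with a median log2 fold change of -0.81. Il1rn alone had a log2 fold change of -0.35, and its groups overlapped. The ratio was thus higher without a rise in Il1rn itself. How many other genes would separate the groups on this scale is not given here. The ratios of Tnf, Osm and Il1rn were not tested. The part that marker cells play in the values of Il1a, Il1b, Il1rn, Osm and Tnf was not tested.

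**Figure D4:**
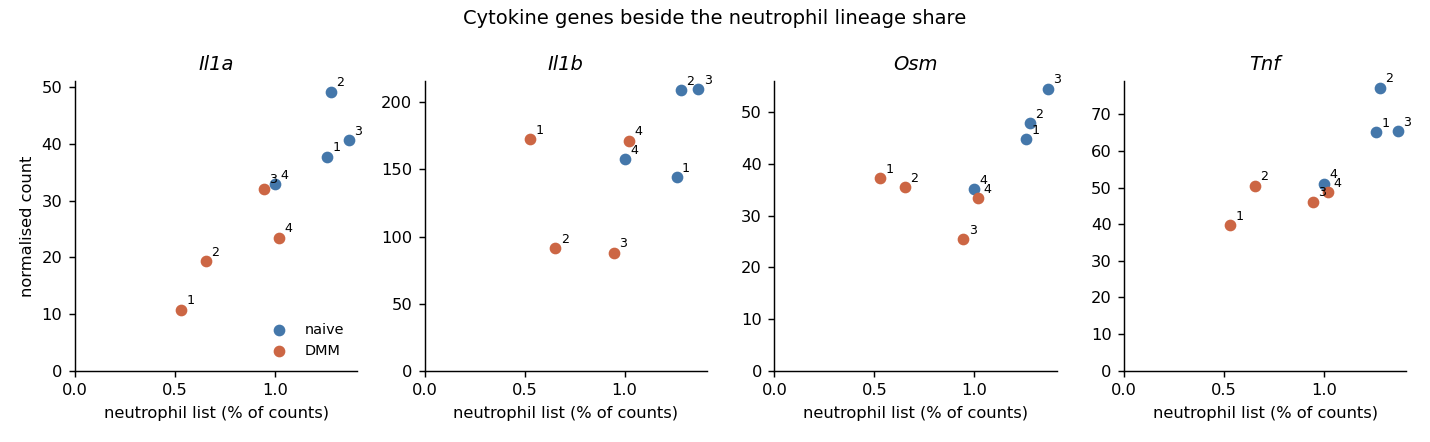
The normalised count of Il1a, Il1b, Osm and Tnf is plotted against the percentage of counts held by the 18 neutrophil lineage markers, with 1 point per library, blue for naive and orange for DMM, numbered by replicate. Il1a is lowest at 10.8 in the library with the lowest share of 0.529%, where Il1b stands at 172.5.

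Markers of other cells also differed between the groups, not all in 1 direction. Over all genes tested, 7.75% were called higher and 5.92% lower. Osteoblast and osteocyte markers were called higher for 9 of 10, with a median log2 fold change of 1.06, and their share of counts was 1.08% ± 0.184 in naive and 2.83% ± 0.279 in DMM mice (SD, n = 4) with no overlap. Chondrocyte markers were called higher for 5 of the 12 with an adjusted p, and 10 of the 12 had fold changes above 0. Col9a1 and Matn3 were at log2 fold changes of -0.36 and -0.29, and neither was called. Of 10 synovial fibroblast markers 3 were called higher, while the mean share of that list was 0.422% in naive and 0.338% in DMM libraries. Of 8 endothelial markers, 3 were called higher and 1 lower, and their share of counts was 0.0428% to 0.0485% in naive and 0.0477% to 0.0539% in DMM libraries. The chondrocyte list held 0.301% to 0.44% of counts in naive and 0.699% to 1.34% in DMM libraries, and the synovial fibroblast list 0.221% to 0.718% and 0.236% to 0.41%. The part of these cells in the higher levels of Il11, Lif, Il6st and Il1r1 was not tested.

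Beyond the 10 genes, 120 listed genes of the same pathways were found in the table. Of those with an adjusted p, 15 were called, 11 higher and 4 lower, which is 14.6% against the 13.7% of all genes. Their median log2 fold change was -0.06. With total counts as size factors, 15 were called and all were higher. The pathway lists were chosen with earlier results of these data known, so their shares of called genes are descriptions.

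Among 10 tested genes of interleukin 1 family ligands and their processing, Il33 alone was called. Il33, an alarmin of the interleukin 1 family, was at 17.6, 12, 8.6 and 19.3 normalised counts in naive libraries 1 to 4 and at 53.9, 29.0, 191.8 and 96.6 in DMM libraries 1 to 4. All DMM libraries were above all naive libraries, and they differed widely among themselves. The increase was 6.46-fold (log2 fold change 2.69, SE 0.51, DESeq2 adjusted p = 7.95e-06), and the call was kept without each library in turn. Without DMM replicate 3, the library with the highest value, the increase was 4.16-fold. The other 9 tested genes of this list all had fold changes below 0. Il36g, the inflammasome sensor Aim2 and the pore-forming Gsdmd passed the adjusted p at log2 fold changes of -0.53, -0.39 and -0.39 but not the fold threshold. Il36a, Il36b and Il1f10 were at 0 in every library.

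Of 18 interleukin 1 family receptors and adaptors, 3 were called, all lower, which is 16.7% against the 13.7% of all genes. Il1r2, a decoy receptor that binds interleukin 1 without signalling, went from 96.9 ± 25.1 to 57.1 ± 10.1 normalised counts (SD, n = 4). The log2 fold change was -0.76 with an SE of 0.25 (DESeq2 adjusted p = 0.0152). For Il1rl1, the receptor of interleukin 33, the value was -0.69 (DESeq2 adjusted p = 0.0203), although its groups overlapped. Il18rap, a chain of the interleukin 18 receptor, had one of -0.67 (DESeq2 adjusted p = 0.00389), also with overlapping groups. These calls changed with single libraries and with the scaling. Both Il1r2 and Il1rl1 lost the call without naive replicate 1, naive replicate 2, DMM replicate 1 or DMM replicate 2, with DESeq2 adjusted p of 0.0652 to 0.118 and 0.059 to 0.118. Il18rap fell below the fold threshold without naive replicate 1, at -0.52. With total counts as size factors none of the 3 was called, and edgeR did not call Il1rl1 (adjusted p = 0.0558).

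Of the other interleukin 6 family ligands listed, 3 received an adjusted p, and Clcf1, a cardiotrophin-like cytokine, was called higher. Clcf1 averaged 62.4 ± 9.05 in naive and 102 ± 28.4 in DMM mice (normalised counts, SD, n = 4, log2 fold change 0.71, SE 0.25, DESeq2 adjusted p = 0.0264). Its groups overlapped, and the call was lost without naive replicate 2, naive replicate 3, DMM replicate 1 or DMM replicate 2 (DESeq2 adjusted p of 0.0788 to 0.136) and without independent filtering (0.0513).

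Of 16 interleukin 6 family receptors and signalling genes, 3 were called, all higher, which is 18.8% against the 13.7% of all genes. Osmr, the oncostatin M receptor, was at 248.9, 295.3, 352.1 and 371.9 normalised counts in naive libraries 1 to 4 and at 530.8, 589.1, 780.4 and 565.9 in DMM libraries 1 to 4. The groups did not overlap (log2 fold change 0.96, SE 0.17, DESeq2 adjusted p = 2.12e-06). Socs3, a feedback inhibitor that is induced by gp130 signalling, was at 129.3, 187.6, 192.6 and 231.3 in naive libraries 1 to 4 and at 461.1, 361.2, 496.4 and 275.3 in DMM libraries 1 to 4. Its groups did not overlap either (log2 fold change 1.11, SE 0.22, DESeq2 adjusted p = 2.56e-05). Both calls were kept without each library in turn.

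Il11ra1, the interleukin 11 receptor, was also called (log2 fold change 0.70, SE 0.23, DESeq2 adjusted p = 0.0145). Its value is uncertain, because 57.7% of its 31-base words also occur in Gm13305, 1 of 2 other genes with shared words. Reads could be divided among these genes. The call was lost without naive replicate 1, naive replicate 3, DMM replicate 1 or DMM replicate 3 (DESeq2 adjusted p of 0.0536 to 0.0796). Stat3 and the Lif receptor Lifr passed the adjusted p at log2 fold changes of 0.28 and 0.37, under the fold threshold. The phosphatase gene Ptpn6 passed it at -0.43, also under that threshold.

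In the Tnf list none of 17 tested genes was called by DESeq2, and none passed the adjusted p. In this list 2 had an unadjusted p under 0.05, and edgeR called 0 of 17. The smallest adjusted p were those of Fadd, a death-receptor adaptor, at a log2 value of -0.41 (DESeq2 adjusted p = 0.0519), and of Ltbr, the lymphotoxin beta receptor, at 0.31 (DESeq2 adjusted p = 0.122). Among 16 subunits, kinases and inhibitors of NF-kB none was called either, by DESeq2 or by edgeR, and 3 had an unadjusted DESeq2 p under 0.05. Nfkbiz, an atypical nuclear member, passed the adjusted p (0.0279 in DESeq2) at a log2 value of 0.41 but not the fold threshold. Bcl3 followed at 0.43 (DESeq2 adjusted p = 0.0935), and with total counts as size factors it was called at 0.59. The median log2 fold changes of the Tnf and NF-kB lists were -0.04 and -0.01.

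Of 31 genes that these cytokines are known to induce, 23 received an adjusted p and 7 were called, 6 higher and 1 lower. The 7 are 30.4% of those tested, against the 13.7% of all genes. The list was chosen with earlier results of these data known, so this share is a description and no test of the list. The list's median log2 fold change was 0.05. Mmp3, the gene of stromelysin, rose 11.3-fold (log2 fold change 3.50, SE 0.35, DESeq2 adjusted p = 7.84e-20). Ptgs2, which encodes the inducible cyclooxygenase, was at 19.3, 30.6, 23.5 and 26.1 normalised counts in naive libraries 1 to 4 and at 112.0, 187.0, 89.7 and 212.1 in DMM libraries 1 to 4. The groups did not overlap, and the increase was 6.08-fold (log2 fold change 2.60, SE 0.32, DESeq2 adjusted p = 7.1e-13).

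The hyaluronan-binding Tnfaip6 changed by 1.87 on the log2 scale (SE 0.45, DESeq2 adjusted p = 0.000517), and the metalloproteinase inhibitor Timp1 one of 1.22 (SE 0.24, DESeq2 adjusted p = 1.2e-05). The collagenase Mmp13 had one of 0.91 (SE 0.21, DESeq2 adjusted p = 0.000222). The aggrecanase Adamts4 was called at 0.79 (DESeq2 adjusted p = 0.0339) but not by edgeR, and the call was lost without naive replicate 1, naive replicate 2, DMM replicate 1, DMM replicate 3 or DMM replicate 4 (DESeq2 adjusted p of 0.0655 to 0.146). Lcn2, also a neutrophil granule protein and on the neutrophil lineage list above, was the gene called lower, at 10288 ± 1875 in naive and 6228 ± 1918 in DMM mice (normalised counts, SD, n = 4, log2 fold change -0.72, DESeq2 adjusted p = 0.00638). Without DMM replicate 1 it was at -0.55, under the fold threshold, and edgeR did not call it (adjusted p = 0.0504). The transcription factor gene Junb and the metalloreductase gene Steap4 passed the adjusted p at log2 values of 0.53 and 0.49 (DESeq2 adjusted p = 0.00046 and 0.00194), under the fold threshold. The neutrophil chemokines Cxcl1 and Cxcl2 averaged 2.79 and 2.85 normalised counts in naive libraries and were too low for an adjusted p.

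**Figure D5:**
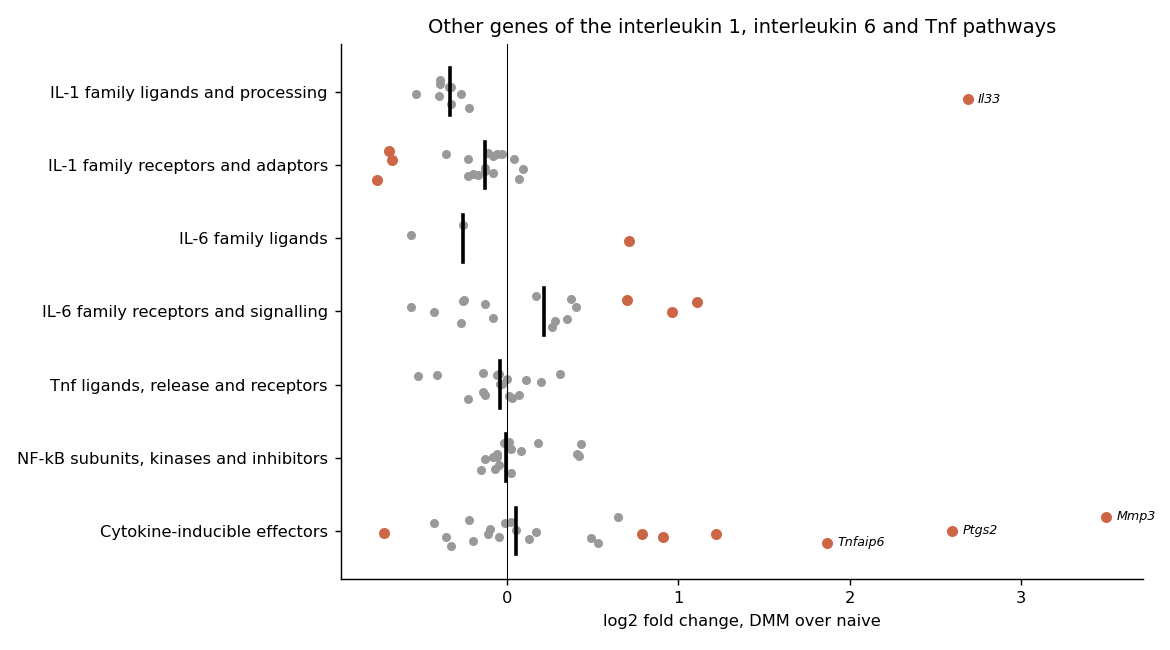
The log2 fold change of DMM over naive is plotted for each of the pathway genes with an adjusted p, in 7 lists, orange where called and grey where not, with the list median as a black bar. Called genes past 1.5 on this scale are named, and no gene of the Tnf and NF-kB lists is orange.

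For 6 of the 10 genes, those averaging 50 or more normalised counts, the most similar patterns over the 8 libraries were sought among 13194 genes by the correlation of log2 values. With so few libraries many genes reach a high correlation, so these are descriptions. The closest to Il1b was Pgap2 (Pearson r 0.973), to Il1rn Cox6b1 (0.985) and to Il1r1 Plce1 (0.980). The closest to Il6st was Trabd2b (0.990), followed by Npdc1 (0.986) and Ergic1 (0.985). The closest to Lif was Zfp398 (0.981), followed by the osteoblast transcription factor Runx2 (0.980) and Bmp8a (0.979). The closest to Tnf were Tbxas1 and Cbl (both 0.988) and Padi4 (0.987), which is known from neutrophils. The libraries behind each correlation share their depth and cell makeup.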

How the data were processed

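RNA-seq was measured in 8 libraries, 4 naive and 4 DMM, grouped by their titles. The deposited values are estimated counts per gene, which the authors made with Trimmomatic 0.39, Kallisto 0.46.1 and tximport 1.14.0 (39.2% are not whole). The methods name GRCm38 with release 103, the labels' notes name a human build, and labels and methods name different library kits. Counts were rounded, without length offsets.

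DESeq2 1.42.0 in R 4.3.3 (Wald test, median-of-ratios factors, default filters, no covariates) was fitted over all genes and tested on simulated data. A gene was called at an adjusted p of 0.05 and 1.5-fold. Shares and the Il1b ratio were compared by two-sided exact permutation tests over 70 assignments. No batch is given in the sources used here. Named genes are the 10 genes, every called pathway gene (or the 2 with the smallest adjusted p), and the 3 most abundant neutrophil and macrophage markers. Other pathway genes past the adjusted p, the markers Col2a1, Acan, Comp and Matn1, and Cxcl1 and Cxcl2 were named after their values were seen. The genes and lists were chosen with earlier results of these data known. Coordinates are from GENCODE vM21 (GRCm38), and 249 of 250 listed symbols were matched. A pair of pathway genes is not reported here and was left out of the lists. Alternatives were edgeR 4.0.16, other factors and filters, a replicate block and leaving out each library.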

Additional observations from a re-analysis of the deposited data

Results flagged for a closer look

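In groups of 4 libraries, a value was looked at again where its gap to the nearest other library took up more of the group's range than Dixon's 95% critical value allows. Chance gives about 1 such group in 20, and 3 of 76 groups tested gave one. None concerned the cytokine genes or the called pathway genes. The erythroid markers held 1.17% of counts in DMM replicate 3, against 0.547% to 0.592% in the other DMM libraries. The skeletal muscle markers held 0.00352% of counts in naive replicate 3, against 0.000803% to 0.00122% in the other naive libraries. They held 0.0105% in DMM replicate 1, against 0.00109% to 0.00151% in the other DMM libraries. DMM replicate 1 also had the lowest neutrophil lineage share, and values of Il1a, Il1b and Lif without it are given with those genes.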

How the results depend on the processing

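Of the 10 genes, Il11 and Lif were called by DESeq2, by edgeR, with TMM factors and without independent filtering; total count scaling added Il6st and a filter of 10 counts in 4 libraries added Il1a. Leaving out each library gave 1 to 3 called genes, 9 to 18 called pathway genes (9 without DMM replicate 1) and 1858 to 2842 called genes in all. With a replicate block, 1 of the 10 genes was called, Il11; Lif had an adjusted p of 0.062, and called pathway genes numbered 11. The block also ended the calls of Il1r2, Il1rl1, Clcf1 and Il11ra1 (adjusted p of 0.0946, 0.0868, 0.0965 and 0.0533) and gave Il1r1 an adjusted p of 0.107. Same-numbered libraries had correlations of 0.05, 0.06, -0.12 and 0.12, so the numbers were not taken to pair mice. Without single libraries, the log2 fold change of Il6 ranged from -0.54 to 0.52 and turned sign without naive replicate 1 (0.52) and DMM replicate 3 (0.05). No other log2 fold change of the 10 genes turned sign. That of Cxcl1 ranged from -0.53 to 0.58. As summed normalised counts the neutrophil lineage list differed by -78513.7 (exact permutation p = 0.0286), and the monocyte and macrophage list turned sign (-1182.8, exact permutation p = 0.1143). The log2 ratio of Il1b to the monocyte and macrophage list turned sign (-0.402, exact permutation p = 0.3143). Without single libraries its ratio to the neutrophil list ranged from -0.00933 to 0.60. With the replicate block, exact sign flips of 4 pairs cannot go below 0.125. The cause of these shifts was not tested. Il6 and the naive level of Il11 are limited by depth.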
